A study of Mus musculus with 8 samples.

Results

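The genes of cholesterol and fatty acid synthesis were followed through prostate tissue of a mouse model of prostate cancer, in 3 WT libraries, 3 libraries of prostatic intraepithelial neoplasia (PIN) and 2 libraries of prostate cancer (PCa). The group holds 33 of the 27036 genes in the count table, taken by symbol as enzymes and regulators of both pathways. Of these, 32 passed the filter on low counts and were tested among 14034 genes. The remaining member, *Hmgcs1*, a cytosolic enzyme of the mevalonate pathway, is listed at 0 in all 8 libraries. Its 2 rows lie on unplaced contigs (NT), and all 325 rows on such contigs hold 0 in every library, so its value says nothing about the tissue.

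WT mice were *R26* mTmG/+:*Osr1* Cre/+ animals, which carried the Cre allele and the fluorescent mTmG reporter without the transgene. PIN and PCa tissues came from *R26* mTmG/hAR:*Osr1* Cre/+ mice, labelled hARtg-Osr1Cre, in which Cre made in *Osr1*-expressing cells switches on a human androgen receptor transgene. All animals were of a mixed C57BL/6 and 129S1/SvImJ background, and WT animals were matched to the others in age. The ages themselves are not given in the sources used here. Each library was taken to come from a different animal. Tissue was taken after microscopy showed mostly atypical or tumor cells, so the samples remain whole tissue and no cells were sorted. The question put to these libraries was how the transcriptome differs between normal tissue, PIN and PCa.

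Cells make cholesterol from acetyl-CoA through the mevalonate pathway, which runs to farnesyl diphosphate, and then through squalene and lanosterol to cholesterol. Fatty acids start from the same acetyl-CoA, which acetyl-CoA carboxylase turns into malonyl-CoA and fatty acid synthase into palmitate, before elongases and desaturases lengthen and unsaturate the chain. Both pathways are controlled by the SREBP transcription factors, which SCAP carries from the endoplasmic reticulum when sterols are scarce and INSIG proteins hold back when sterols are plentiful. In prostate cells, androgens are known to raise the expression of lipid synthesis enzymes.

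Total counts ranged from 21751803 to 29730420 per library. Levels across libraries are given as CPM, counts scaled to library sizes adjusted by the trimmed mean of M-values (TMM), and levels across genes as RPKM, the same scale per kilobase of exon. Prostate identity was visible in WT and PIN, where the secretory gene *Pbsn* was at 6552 CPM or more, while the PCa libraries held 8.53 and 60.8 CPM. The WT libraries were unlike one another. WT 1 held 14516 CPM of 4 seminal vesicle markers against 0.0453 and 0.0732 in WT 2 and WT 3, and 417 CPM of 8 adipocyte markers against 59.0 and 41.7, of which *Lipe* alone made 57.4 in WT 2 and 32.4 in WT 3. WT 2 held 31592 CPM of 8 luminal and secretory epithelial markers, the highest sum of all libraries. Library numbers in the labels fall into 3 series, with WT 1 alone, WT 2 and WT 3 together, and all PIN and PCa libraries in the third. Whether these are batches is not given in the sources used here, and any effect of the series cannot be told apart from that of condition where WT is compared, whereas PCa versus PIN lies within 1 series. In the paper PCa lesions arose at later ages than PIN lesions, so age may differ with stage there and cannot be told apart from it. In whole tissue, fewer cells of a type and less RNA per cell cannot be told apart.

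By level per length, *Scd2* and *Scd1* stood above the rest of the members. *Scd2*, a stearoyl-CoA desaturase that puts the first double bond into saturated fatty acids, had the highest mean RPKM in WT, PIN and PCa, with 145, 165 and 167. Its paralog *Scd1* was next, with 58.4, 71.0 and 90.6 RPKM. Reads that match both of these similar genes can be lost or misplaced in counting. How such reads were treated is not given in the sources used here. The other desaturases, *Fads1* and *Fads2*, were far lower, at 6.01 and 6.59 RPKM in WT. The elongase *Elovl5* (25.9 RPKM in WT), *Fdps* (23.6), *Srebf2* (22.8), *Elovl1* (22.6), *Ebp* (21.8) and *Fasn* (21.5) followed, and the ranges of these genes over the WT libraries overlapped. *Idi1* was lowest among the tested members, at 0.668 RPKM in WT, with *Elovl6* at 1.09 and *Acacb* at 1.14.

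No member was called in any comparison, where a call needs an adjusted p under 0.05 (edgeR's quasi-likelihood test, adjusted over all tested genes by Benjamini-Hochberg) and a log2 fold change beyond 1 in either direction. Between PIN and WT, 0 of 32 members were called, as were 0% of all genes, and 1 member had an unadjusted p under 0.05 against 3.51% of all genes. Between PCa and WT, 0 of 32 members were called against 8.54% of all genes, and 5 members had an unadjusted p under 0.05 against 27.5%. Between PCa and PIN, 0 of 32 were called against 5.72% of all genes, and 3 had an unadjusted p under 0.05 against 22.8%. Other tools called some members. DESeq2 called *Nsdhl* and *Elovl6* in PCa versus WT and *Fasn* and *Elovl6* in PCa versus PIN, and 0 members in PIN versus WT, where it called 17.7%, 14.1% and 0.278% of all genes. With limma-trend, 0 members were called in each, beside 9.43%, 7.13% and 0% of all genes in the same order. Leaving out PCa 1 raised the counts to 7 in PCa versus WT and 8 in PCa versus PIN, where 18.2% and 16.6% of all genes were then called. These were *Nsdhl*, *Srebf2*, *Acaca*, *Fads2*, *Elovl5* and *Elovl6*, called higher, and *Dhcr7*, called lower, in both comparisons, with *Fasn* called higher versus PIN. Leaving out PCa 2 gave 0 in both, beside 10.1% and 7.05% of all genes, and leaving out WT 1 gave 1 (*Fasn*) in PCa versus PIN, beside 3.53%. In these runs the lone PCa library is assumed to vary like the other groups.

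Read by library range, 3 members (*Pmvk*, *Nsdhl* and *Hsd17b7*) were higher in both tumors than in every WT library and 5 (*Fdps*, *Lss*, *Dhcr7*, *Insig1* and *Acss2*) were lower, where 17.7% and 19.6% of all genes were. Against PIN, 4 members (*Pmvk*, *Idi1*, *Hsd17b7* and *Fasn*) were higher in both tumors and 4 (*Fdps*, *Insig1*, *Acss2* and *Fads1*) lower, beside 21.1% and 23.2% of all genes. The median log2 fold change of the 32 members was -0.13 in PIN versus WT, 0.07 in PCa versus WT and 0.23 in PCa versus PIN, beside -0.02, 0.01 and 0.07 for all tested genes. The 15 tested sterol synthesis members had medians of -0.20, -0.21 and 0.19. The 12 fatty acid enzymes had medians of 0.06, 0.51 and 0.62. Without PCa 2, the fatty acid medians were -0.28 in PCa versus WT and -0.32 in PCa versus PIN, so their direction in tumors was set by 1 library. The comparisons with WT share its libraries, and both comparisons of PCa share the same tumors.

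**Figure D1:**
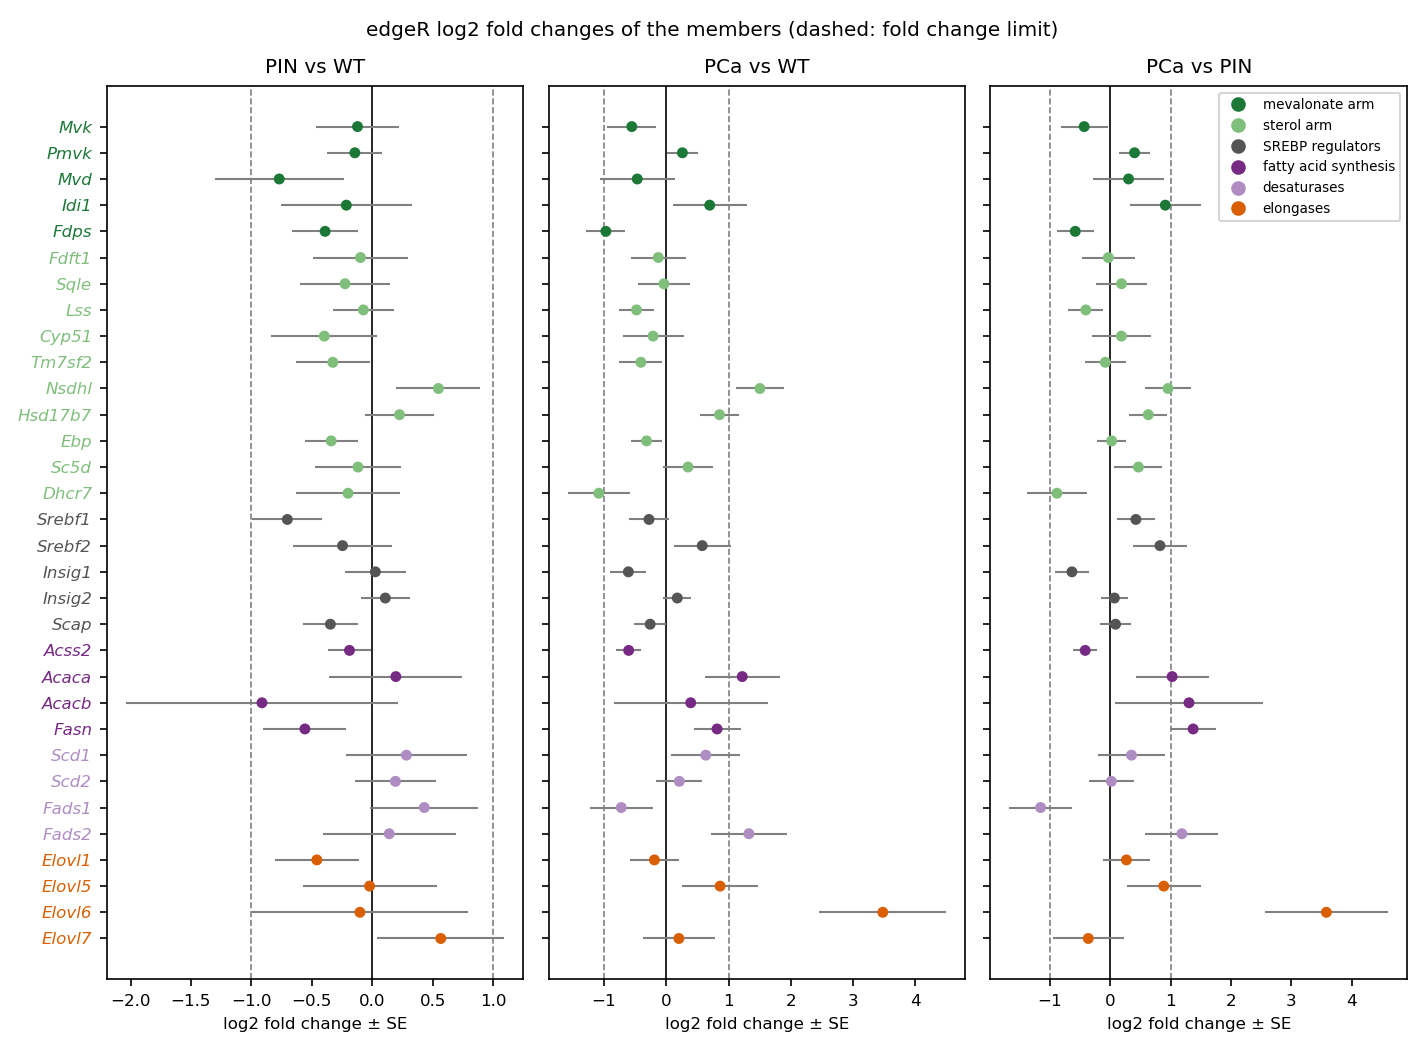
edgeR log2 fold changes (points) with their standard errors (bars) for the 32 tested members in PIN versus WT, PCa versus WT and PCa versus PIN, coloured by role, with dashed lines at a log2 fold change of 1 in either direction. Most points lie between the dashed lines, and *Elovl6* lies farthest out, at 3.48 in PCa versus WT and 3.58 in PCa versus PIN, without passing the test.

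The mevalonate arm was represented by *Mvk*, *Pmvk*, *Mvd*, *Idi1* and *Fdps*, whose products turn mevalonate into farnesyl diphosphate. *Fdps*, the farnesyl diphosphate synthase, was at 25.3, 35.6 and 26.2 CPM in WT 1 to 3, 17.7, 18.5 and 30.2 in PIN 1 to 3, and 14.6 and 15.1 in PCa 1 and 2. Both tumors lay below every WT and every PIN library. The log2 fold change was -0.97 ± 0.31 (SE) in PCa versus WT, with an adjusted p of 0.0954 in edgeR's quasi-likelihood test. It was -0.58 ± 0.31 in PCa versus PIN, with an adjusted p of 0.313 in the same test. *Mvd*, the mevalonate diphosphate decarboxylase, was at 9.39, 21.8 and 6.44 CPM in WT, 6.44, 6.23 and 9.38 in PIN, and 12.8 and 5.35 in PCa. WT 2 stood above all other libraries, and all groups overlapped. *Mvd* had the lowest log2 fold change of this arm in PIN versus WT, at -0.77 ± 0.53, and it was -0.11 without WT 2. *Idi1*, the isopentenyl diphosphate isomerase, was at 1.53, 3.81 and 1.68 CPM in WT, 2.27, 1.48 and 2.30 in PIN, and 2.32 and 5.28 in PCa. It was the highest of the arm in PCa versus WT, with a log2 fold change of 0.70 ± 0.59 and groups that overlapped. That fold change ran from 0.0033 to 1.24 when libraries were left out. *Mvk*, the mevalonate kinase, ran from 10.4 to 16.2 CPM in WT, 9.43 to 15.2 in PIN and 6.21 to 10.7 in PCa. *Pmvk*, the phosphomevalonate kinase, was at 9.19 to 11.01 CPM in WT, 8.17 to 9.94 in PIN and 11.8 to 12.3 in PCa, a narrow range in which both tumors were the highest libraries.

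In the sterol arm, *Nsdhl* (chrX:70163896-70203853, mm9) came closest to a call. It encodes a sterol dehydrogenase that helps remove the methyl groups at carbon 4. Its levels were 13.6, 15.5 and 17.1 CPM in WT, 18.5, 22.97 and 25.95 in PIN, and 24.5 and 62.8 in PCa. Every PIN and PCa library lay above every WT library, and PCa 1 lay within the PIN range. It was the only member whose PIN and WT groups did not overlap, where 12.9% of all genes did not. Its log2 fold change was 0.55 ± 0.35 in PIN versus WT and 1.504 ± 0.38 in PCa versus WT, with adjusted p-values of 1.0 and 0.0512 in edgeR's quasi-likelihood test. Upper-quartile normalization brought the latter to 0.0439, and DESeq2 to 0.00485. Without PCa 2 the log2 fold change was 0.69 with an adjusted p of 0.164. *Hsd17b7*, the 3-keto-sterol reductase of the next step, was at 6.67, 8.79 and 6.11 CPM in WT, 7.38, 7.51 and 10.3 in PIN, and 14.7 and 11.3 in PCa. Both tumors were above every other library, and the log2 fold change in PCa versus WT was 0.86 ± 0.32, with an adjusted p of 0.130 in the same test.

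*Dhcr7* (chr7:151009050-151034315, mm9) encodes the reductase of the last step to cholesterol in one branch of the pathway. It was at 18.04, 14.1 and 14.97 CPM in WT, 11.4, 13.1 and 16.5 in PIN, and 11.5 and 3.33 in PCa. PCa 2 was the lowest of all libraries, and PCa 1 lay within the PIN range. The log2 fold change in PCa versus WT was -1.08 ± 0.50, with an adjusted p of 0.209 in edgeR's quasi-likelihood test, and without PCa 2 it was -0.43. The other sterol arm members were *Fdft1*, *Sqle*, *Lss*, *Cyp51*, *Tm7sf2*, *Ebp* and *Sc5d*, which act from squalene to the late sterol intermediates. Of these, *Lss*, the lanosterol synthase, was lower in both tumors (24.6 and 39.8 CPM) than in each WT library (41.6 to 48.8), and the PIN libraries spanned both groups (34.2 to 53.8). The others overlapped between PCa and WT. About 26.9% of the exon bases of *Fdft1* are shared with *Ctsb* on the opposite strand, and 15.3% of those of *Tm7sf2* with 1110014N23Rik on the same strand, so their counts are less certain. The sources used here do not state whether strand was used, which bears on the first overlap.

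WT 2 held higher levels of several sterol genes, and lower levels of several fatty acid enzymes, than the other WT libraries. *Cyp51*, the lanosterol demethylase, was at 29.7, 91.9 and 31.1 CPM in WT, 34.4, 35.9 and 45.6 in PIN, and 45.5 and 42.3 in PCa. *Sqle*, the squalene epoxidase, was at 32.2, 78.6 and 33.8 CPM in WT, and *Fdft1*, the squalene synthase, at 25.02, 54.8 and 21.01. In all 3 genes WT 2 was higher than each PIN and each PCa library. Measured as CPM plus 0.5, WT 2 was at least 2-fold above the mean of WT 1 and WT 3 for 5 members, all of them sterol synthesis genes, where 5.92% of all genes were. These were *Cyp51* (2.99-fold), *Mvd* (2.65), *Sqle* (2.36), *Fdft1* (2.35) and *Idi1* (2.04). It was at least 2-fold lower for 4 members, all of them fatty acid enzymes, where 17% of all genes were, and these were *Acacb* (13.1-fold lower), *Fads1* (2.95), *Fads2* (2.43) and *Acaca* (2.09). The sterol gene *Sc4mol*, which was not among the members, was also highest in WT 2, with 162 CPM against 38.5 and 41.7. Of the 7 related sterol genes in its list, 4 were higher in WT 2 than in the mean of WT 1 and WT 3. The median log2 difference was 0.34. WT 2 held the most luminal and secretory markers and, at 1602 CPM, the least smooth muscle markers among WT and PIN libraries. Of its adipocyte markers, *Adipoq*, *Plin1*, *Cidec*, *Lep*, *Retn* and *Cfd* were at 0, *Fabp4* was at 1.68 CPM and *Lipe* at 57.4, and its endothelial markers summed to 10.01 CPM, against 39.1 to 81.0 in the other libraries. The part of tissue makeup in these values was not tested. Without WT 2, the median log2 fold change of the sterol members in PCa versus WT was 0.33.

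**Figure D2:**
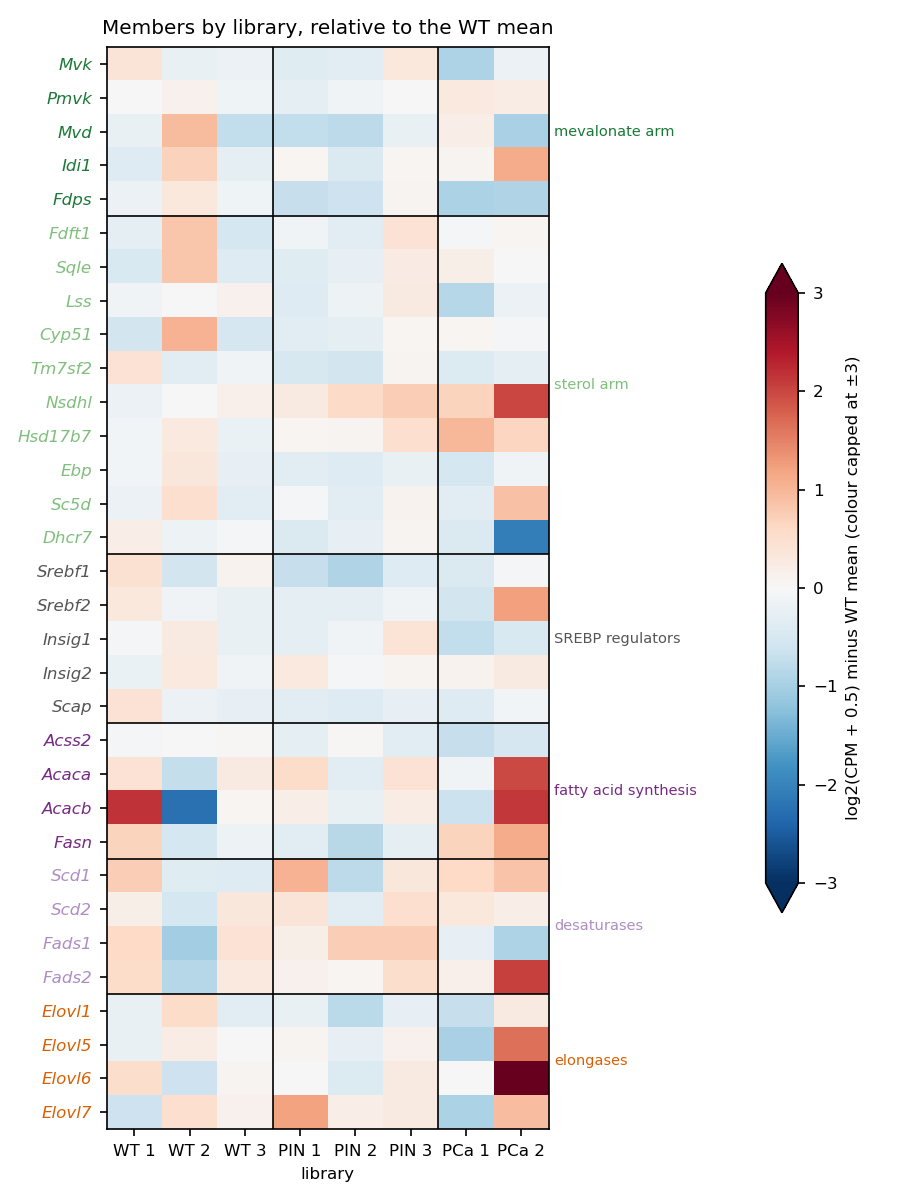
Difference of each tested member from the WT mean in each of the 8 libraries, as log2(CPM + 0.5), with red for higher and blue for lower, members in rows grouped by role and libraries in columns. WT 2 is red across *Mvd*, *Idi1*, *Fdft1*, *Sqle* and *Cyp51* and blue across *Acaca*, *Acacb*, *Fads1* and *Fads2*, the PIN columns are mostly pale, and PCa 2 is red across most fatty acid enzymes.

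The promoters of the members that carried these differences are shown with letters that are often found at SREBP target genes. SREBPs act at such genes together with NF-Y, which binds CCAAT, and with Sp1, which binds GGGCGG. Windows of 300 bases, from 250 before to 50 after the annotated start, were taken from RefSeq on GRCm38.p6, a later build than the mm9 used for the counts. They existed for 27 of the 33 members, some with several starts, giving 36 windows. *Fdps*, *Fdft1*, *Sqle*, *Scd1*, *Scd2* and *Fads1* had none. The letters were searched on both strands.

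*Cyp51* and *Mvd* are shown because they stood out in WT 2, *Nsdhl* and *Fasn* because they had the lowest adjusted p-values in a comparison with PCa, and *Elovl6* because it had the largest fold change. Capitals mark CCAAT and GGGCGG, on either strand. Each sequence is written 5′ to 3′ on the strand of the gene, and in *Fasn* the stretch CCAATTGG holds CCAAT on both strands with an overlap. The *Cyp51* window is chr5:4104648-4104947 (minus strand), that of *Mvd* chr8:122443373-122443672 (minus), that of *Nsdhl* chrX:72918271-72918570 (plus), that of *Fasn* chr11:120824498-120824797 (minus) and that of *Elovl6* chr3:129532136-129532435 (plus), all on GRCm38.p6.
Cyp51: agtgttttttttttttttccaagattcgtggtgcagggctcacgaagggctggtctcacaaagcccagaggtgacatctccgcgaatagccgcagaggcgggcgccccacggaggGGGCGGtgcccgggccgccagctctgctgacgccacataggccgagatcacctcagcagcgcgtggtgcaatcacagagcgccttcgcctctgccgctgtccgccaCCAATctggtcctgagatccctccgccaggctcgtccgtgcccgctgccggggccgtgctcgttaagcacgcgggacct
Mvd: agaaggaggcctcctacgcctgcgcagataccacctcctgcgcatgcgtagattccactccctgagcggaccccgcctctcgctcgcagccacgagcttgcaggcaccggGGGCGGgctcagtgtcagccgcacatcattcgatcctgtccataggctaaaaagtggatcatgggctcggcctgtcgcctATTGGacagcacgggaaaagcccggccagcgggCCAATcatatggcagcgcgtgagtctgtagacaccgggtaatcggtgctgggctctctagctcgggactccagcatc
Nsdhl: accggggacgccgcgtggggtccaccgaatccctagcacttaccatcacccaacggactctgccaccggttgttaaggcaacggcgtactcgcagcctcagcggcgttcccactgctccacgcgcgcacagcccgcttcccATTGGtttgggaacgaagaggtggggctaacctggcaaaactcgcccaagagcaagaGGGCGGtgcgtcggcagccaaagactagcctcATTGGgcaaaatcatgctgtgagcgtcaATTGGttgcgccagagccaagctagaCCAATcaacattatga
Fasn: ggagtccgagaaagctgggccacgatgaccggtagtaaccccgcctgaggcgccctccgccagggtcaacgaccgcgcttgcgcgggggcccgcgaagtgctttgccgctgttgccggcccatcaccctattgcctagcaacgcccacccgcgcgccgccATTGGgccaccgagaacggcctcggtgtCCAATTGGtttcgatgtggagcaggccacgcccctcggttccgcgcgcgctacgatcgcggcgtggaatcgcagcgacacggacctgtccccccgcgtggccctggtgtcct
Elovl6: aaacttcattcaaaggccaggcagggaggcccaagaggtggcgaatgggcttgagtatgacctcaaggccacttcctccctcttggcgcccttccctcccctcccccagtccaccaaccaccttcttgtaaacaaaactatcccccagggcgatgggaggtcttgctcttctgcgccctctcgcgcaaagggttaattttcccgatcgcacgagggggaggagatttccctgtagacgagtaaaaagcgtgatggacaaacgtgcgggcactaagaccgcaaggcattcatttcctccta

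The window of *Nsdhl* held 4 CCAAT letters over both strands and 1 GGGCGG, that of *Mvd* 2 and 1, that of *Cyp51* 1 and 1, and that of *Fasn* 3 and 0. The *Elovl6* window held neither, and is written in lower case throughout. Over all 36 member windows, 63.9% held CCAAT against 37.4% of 32851 promoter windows in the table, and 72.2% held GGGCGG against 35.7%. Both were in 47.2% of member windows against 12.8% of all windows. The E-box CACGTG, another motif that SREBPs can bind, was in 19.4% against 7.15%, and the sterol regulatory letters TCACNCCAC were in 2.78%, which is the single window of *Hmgcs1*, against 1.24%. These counts describe letters in these windows, several members have more than 1 window, and a match is not a measured binding site.

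Among the regulators, *Srebf1*, which encodes the SREBP form best known for fatty acid genes, was at 127, 63.3 and 99.4 CPM in WT, 57.4, 49.5 and 71.4 in PIN, and 68.5 and 91.1 in PCa. PIN 1 and PIN 2 lay below every WT library, and PIN 3 lay between WT 2 and WT 3. In PCa versus WT the log2 fold change of *Srebf1* was -0.28. *Srebf1* was the member with an unadjusted p under 0.05 in PIN versus WT, with a log2 fold change of -0.70 ± 0.29 and an adjusted p of 1.0 in edgeR's quasi-likelihood test. *Srebf2*, whose product chiefly drives cholesterol genes, was at 140.0, 104 and 96.1 CPM in WT, 92.1, 90.6 and 104 in PIN, and 75.9 and 263 in PCa. PCa 1 was the lowest and PCa 2 the highest of all libraries. Its log2 fold change in PCa versus WT was 0.58 ± 0.45. It was 1.22 without PCa 1, with an adjusted p of 0.0192 in edgeR's quasi-likelihood test, and -0.56 without PCa 2.

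*Insig1*, itself a known SREBP target whose product retains SCAP, was at 31.1, 39.2 and 27.8 CPM in WT, 26.3, 30.1 and 43.4 in PIN, and 19.3 and 23.6 in PCa. Both tumors were below every WT and PIN library. The log2 fold change was -0.61 ± 0.29 in PCa versus WT and -0.63 ± 0.29 in PCa versus PIN, with adjusted p-values of 0.219 and 0.243 in edgeR's quasi-likelihood test. *Insig2* was at 28.2, 40.1 and 30.5 CPM in WT, 40.0, 31.9 and 34.4 in PIN, and 35.2 and 39.3 in PCa, with all groups overlapping. *Scap* was at 103, 67.2 and 63.5 CPM in WT, 60.7, 58.3 and 64.4 in PIN, and 58.2 and 71.9 in PCa, and its groups overlapped too. About 18.9% of the *Scap* exon bases are shared with 5830462I19Rik on the opposite strand.

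Of the enzymes that make palmitate, *Fasn*, the fatty acid synthase (chr11:120667254-120685492, mm9), separated the tumors from PIN. It was at 317, 139 and 178 CPM in WT, 156, 111 and 164 in PIN, and 316 and 428 in PCa. Both tumors were above every PIN library, but WT 1 was as high as PCa 1. Its log2 fold change was 1.37 ± 0.38 in PCa versus PIN and 0.82 ± 0.38 in PCa versus WT, with adjusted p-values of 0.0769 and 0.209 in edgeR's quasi-likelihood test. In PCa versus PIN it was called by DESeq2 (adjusted p of 0.00762), without WT 1 (0.0494) and without PCa 1 (0.0490). The high *Fasn* value of WT 1 stood beside its adipocyte markers, with *Adipoq*, which encodes adiponectin, at 32.7 CPM in WT 1 and at 0 and 0.695 in WT 2 and WT 3. In PCa 1 *Adipoq* was at 9.01 CPM and in PCa 2 at 0.0343. Of the 8 adipocyte markers, *Adipoq*, *Plin1*, *Cidec*, *Lep*, *Retn* and *Cfd* were each at 0.171 CPM or less in PCa 2, *Fabp4* was at 12.8 CPM, above every PIN library, WT 2 and WT 3, and *Lipe* at 20.5 CPM, against 17.3 in PCa 1. WT 1 also held the most seminal vesicle markers. The part of fat or seminal vesicle tissue in these levels was not tested.

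*Acaca*, the cytosolic acetyl-CoA carboxylase that commits carbon to fatty acids, was at 32.7, 14.6 and 29.3 CPM in WT, 35.6, 19.4 and 32.6 in PIN, and 22.5 and 96.4 in PCa. PCa 1 lay within the WT range and PCa 2 was 2.95-fold above the highest WT library. The log2 fold change in PCa versus WT was 1.22 ± 0.60, with an adjusted p of 0.237 in edgeR's quasi-likelihood test, and it was -0.17 without PCa 2. *Acacb*, the form at the mitochondrial membrane, was at 26.4, 0.770 and 5.71 CPM in WT, 6.41, 4.62 and 6.44 in PIN, and 3.31 and 25.5 in PCa, so WT alone spanned the values of all other libraries. *Acss2*, which makes acetyl-CoA from acetate, was at 45.7, 46.1 and 48.2 CPM in WT, 38.0, 48.0 and 36.9 in PIN, and 28.6 and 32.9 in PCa. Both tumors were below every WT and PIN library. Its log2 fold change in PCa versus WT was -0.60 ± 0.20, with an adjusted p of 0.104 in the same test.

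Among the desaturases, *Fads1* and *Fads2*, which make polyunsaturated fatty acids and lie near each other at chr19:10257378-10271360 and chr19:10138654-10175993 (mm9), had fold changes of opposite sign in tumors. *Fads1* was at 28.3, 8.75 and 25.3 CPM in WT, 21.1, 31.4 and 31.4 in PIN, and 15.6 and 9.53 in PCa. Both tumors were below every PIN library and within the WT range, with a log2 fold change of -0.72 ± 0.51 in PCa versus WT. It ran from -1.11 to -0.39 when libraries were left out. *Fads2* was at 13.7, 4.85 and 11.3 CPM in WT, 10.01, 9.54 and 13.3 in PIN, and 10.2 and 39.7 in PCa. PCa versus WT gave a log2 fold change of 1.33 ± 0.61, with an adjusted p of 0.204 in edgeR's quasi-likelihood test, and it was 0.05 without PCa 2. On CPM plus 0.5, *Scd1* was the one member whose PIN libraries differed by 2-fold or more, where 12.3% of all genes did. *Elovl7* was just short of it, at 1.997-fold. The PIN values of *Scd1* were 547, 152 and 331 CPM. Its WT values were 440.0, 204 and 203 CPM, and its PCa values 396 and 480.2.

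The elongases held the member with the largest fold change. *Elovl6* (chr3:129235304-129341413, mm9), which lengthens palmitate to stearate, was at 9.15, 3.85 and 6.52 CPM in WT, 6.08, 4.55 and 7.53 in PIN, and 6.05 and 139 in PCa. PCa 1 was within the WT and PIN ranges, and PCa 2, with 4048 counts, was 15.2-fold above the highest WT library. The log2 fold change in PCa versus WT was 3.48 ± 1.02, with an adjusted p of 0.0744 in edgeR's quasi-likelihood test. It was -0.09 without PCa 2 and 4.42 without PCa 1, and the latter had an adjusted p of 0.00174 in the same test. *Elovl5*, which lengthens polyunsaturated chains, was at 77.3, 105 and 91.4 CPM in WT, 95.2, 76.0 and 98.3 in PIN, and 45.6 and 287 in PCa. PCa 1 was the lowest and PCa 2 the highest of all libraries. PCa versus WT gave a log2 fold change of 0.86 ± 0.61, and it was -0.99 without PCa 2.

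*Elovl7* and *Elovl1*, which act on longer saturated chains, were also lower in PCa 1 than in PCa 2. *Elovl7* was at 42.3, 92.7 and 71.7 CPM in WT, 151, 75.4 and 79.4 in PIN, and 33.9 and 125 in PCa. It had the highest log2 fold change of the elongases in PIN versus WT, 0.57 ± 0.53, and this rested in part on PIN 1, without which it was 0.16. *Elovl1* was at 50.4, 86.5 and 47.8 CPM in WT, 50.4, 33.8 and 50.1 in PIN, and 36.3 and 71.6 in PCa, with all groups overlapping.

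**Figure D3:**
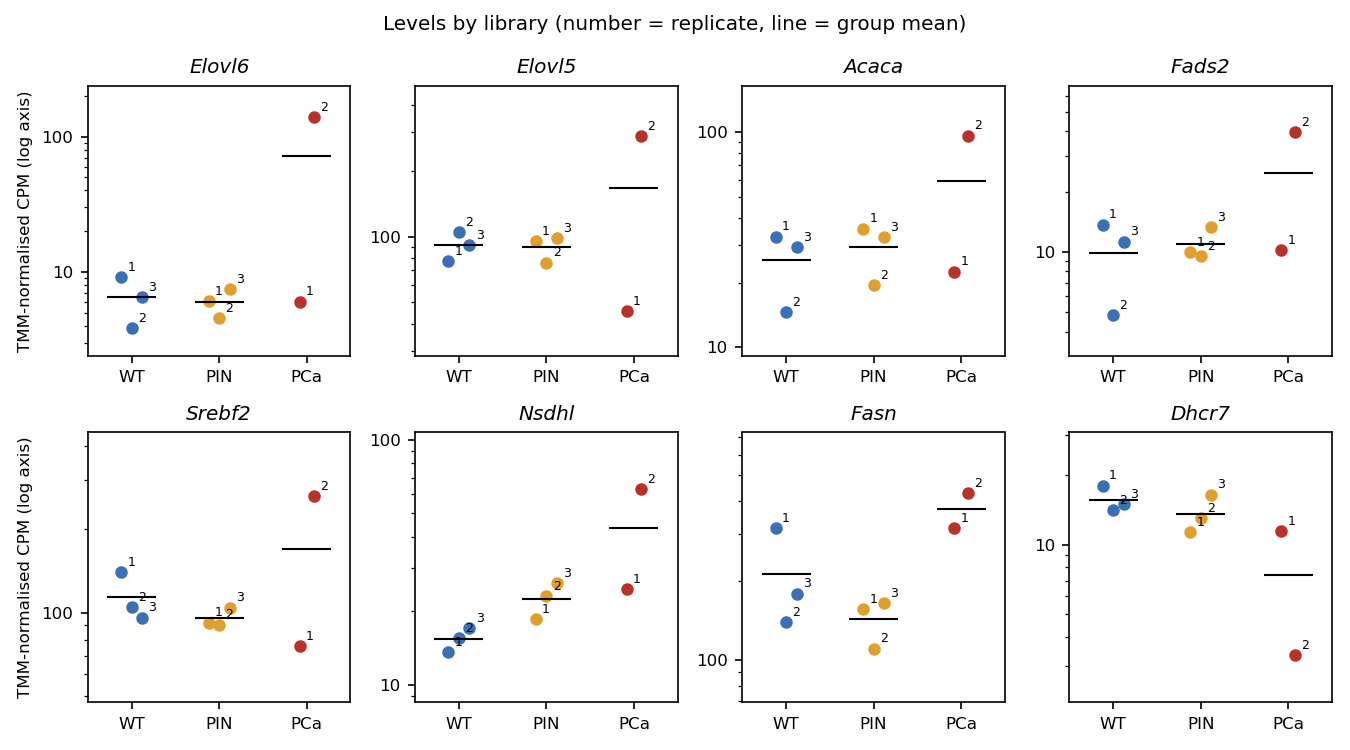
Levels of 8 members in each library as TMM-normalised CPM on log axes, with points numbered by replicate, coloured by group, and a line at the mean of each group. PCa 2 stands far above PCa 1 for *Elovl6*, *Elovl5*, *Acaca*, *Fads2*, *Srebf2* and *Nsdhl*, the tumors lie close together for *Fasn*, and PCa 2 is the low point for *Dhcr7*.

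The 2 tumors differed from each other in many fatty acid enzymes. On CPM plus 0.5, PCa 2 was at least 2-fold above PCa 1 for 10 of 32 members, where 11.2% of all genes were, and at least 2-fold below for 2 members, where 20.6% were. The 10 were *Elovl6* (21.3-fold), *Acacb* (6.81), *Elovl5* (6.24), *Acaca* (4.21), *Fads2* (3.75), *Elovl7* (3.63), *Srebf2* (3.45), *Nsdhl* (2.53), *Sc5d* (2.29) and *Idi1* (2.05). Of these, 6 were among the 12 fatty acid enzymes. The 2 members that were higher in PCa 1 were *Dhcr7* (3.13-fold) and *Mvd* (2.28). The median log2 ratio of PCa 2 to PCa 1 was 1.42 over the fatty acid enzymes, 0.12 over the 15 sterol synthesis members and -0.01 over all tested genes. With 1 library on each side these are values of 2 libraries and carry no test.

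Set against WT, PCa 1 was above every WT library for 0 of the 12 fatty acid enzymes and below every WT library for 4, while PCa 2 was above for 7 and below for 1. Over all tested genes, PCa 1 was above every WT library for 32.9% and below for 32.3%, and PCa 2 for 31.9% and 36%. Relative to the WT mean, the median of the fatty acid enzymes lay at -0.17 on the log2 scale for PCa 1 and at 1.01 for PCa 2, beside -0.28 to 0.27 in the PIN libraries. WT libraries, each set against the other WT libraries, stood at 0.73, -0.78 and 0.10. For the sterol synthesis members the median difference was -0.07 in PCa 1 and -0.05 in PCa 2, so the tumors were alike in that measure. By summed level, the fatty acid enzymes took 1864 CPM in PCa 1 and 2611 in PCa 2, against 1241 to 1948 in WT and 1178 to 2115 in PIN.

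Tissue markers differed between the tumors as well. PCa 1 held 331 CPM of leukocyte markers, 237 of basal epithelial markers and 2757 of seminal vesicle markers, and PCa 2 held 27.3, 26.3 and 94.3. The 8 adipocyte markers summed to 90.7 CPM in PCa 1 and 33.6 in PCa 2, and *Lipe* alone among them was higher in PCa 2. Luminal and secretory markers summed to 3358 and 2303 CPM. Smooth muscle markers were nearly gone from both tumors, with 27.8 and 16.5 CPM against at least 1602 in WT. The part of leukocytes, basal cells, fat or seminal vesicle tissue in the difference was not tested.

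**Figure D4:**
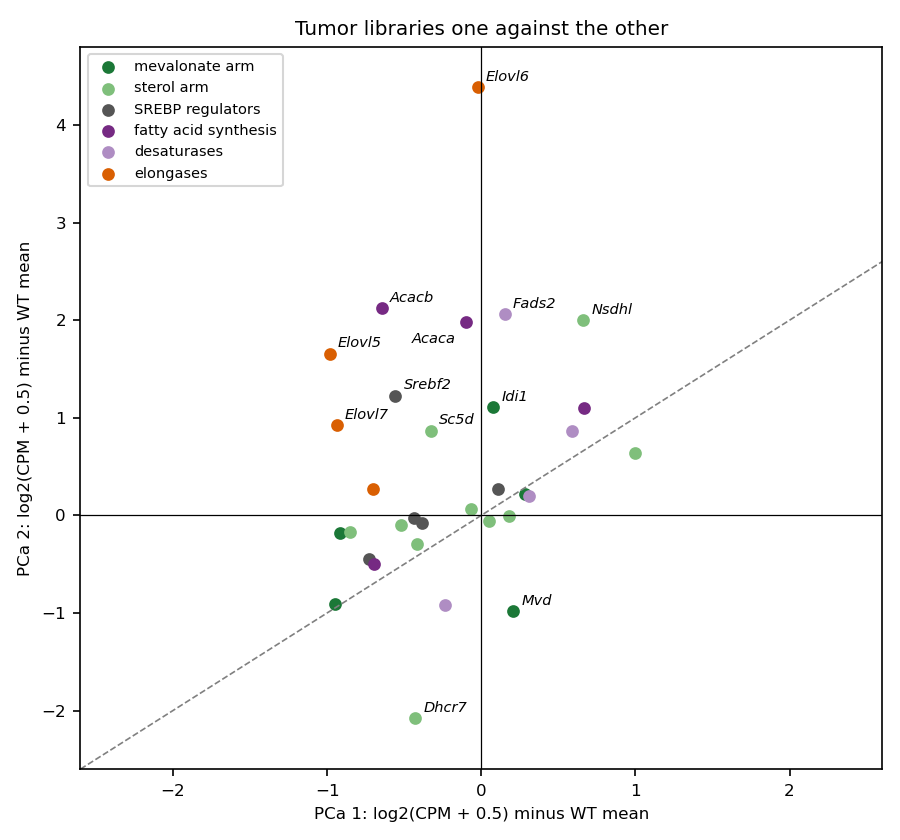
Difference of each tested member from the WT mean in PCa 1 (horizontal axis) and PCa 2 (vertical axis), as log2(CPM + 0.5), coloured by role, with a dashed line of equal values. Members that differ by 2-fold or more between the tumors are named, and *Elovl6*, *Acacb*, *Acaca*, *Fads2*, *Elovl5* and *Elovl7* lie above the line while *Mvd* and *Dhcr7* lie below it.

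**Figure D5:**
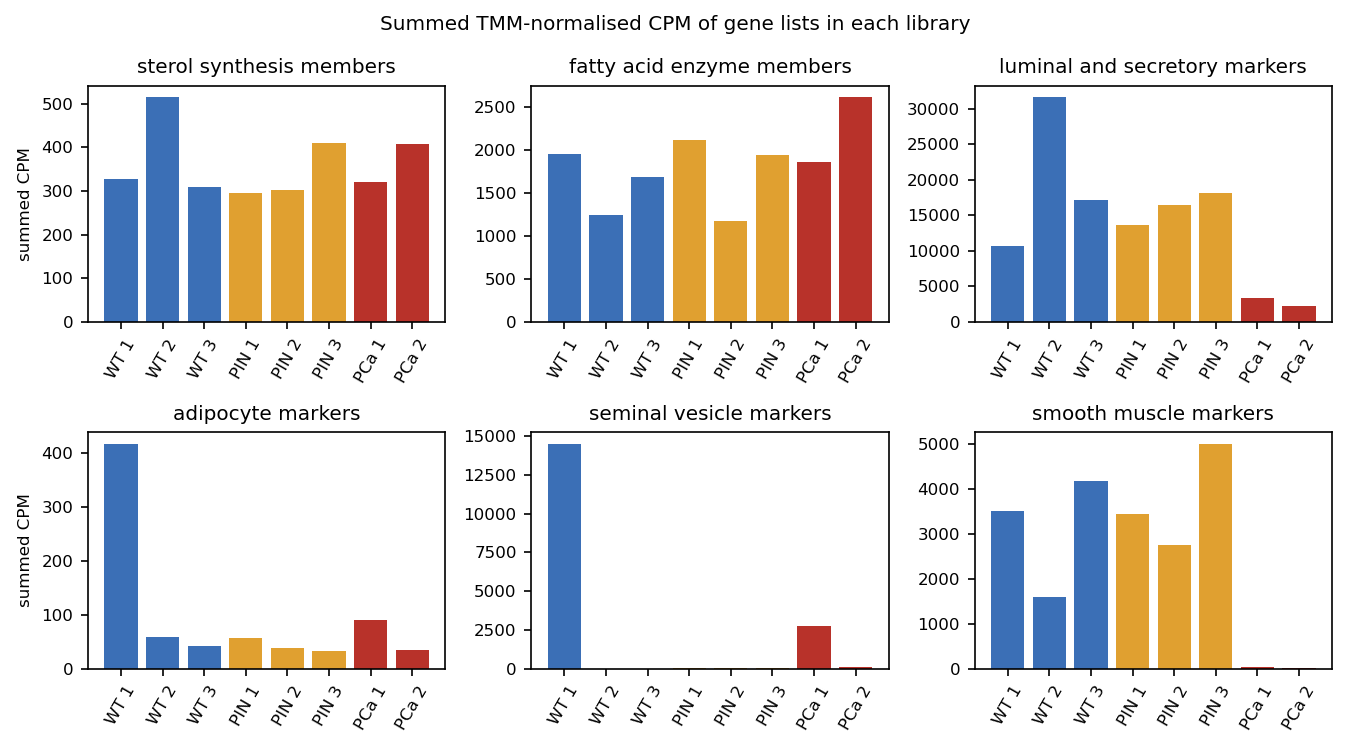
Summed CPM in each library for the sterol synthesis members, the fatty acid enzymes and 4 lists of tissue markers, with bars coloured by group. WT 1 has the highest bars for adipocyte (417 CPM) and seminal vesicle (14516 CPM) markers, WT 2 for sterol synthesis (515 CPM) and for luminal and secretory markers, and PCa 2 for the fatty acid enzymes.

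Among the PIN libraries, 1 of 32 members (*Scd1*) reached 2-fold between the highest and the lowest library, where 12.3% of all genes did, whereas 14 of 32 did among WT libraries, where 33.8% of all genes did. Among the WT libraries, WT 1 was at least 2-fold above the others for *Acacb* (7.21-fold) and *Scd1* (2.16), beside 9.23% of all genes. Both genes are known to be expressed in fat. WT 1 was the WT library with the most adipocyte markers (417 CPM) and the most seminal vesicle markers (14516 CPM). The part of either tissue in these levels was not tested.

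Genes around the members, from lists of related functions, included some that were called. *Stard4*, whose product carries cholesterol between membranes, was at 17.6, 21.5 and 12.2 CPM in WT, 36.2, 21.9 and 34.9 in PIN, and 4.12 and 3.39 in PCa. Every tumor value was below every other library. Its log2 fold change was -2.19 in PCa versus WT and -3.04 in PCa versus PIN, with adjusted p-values of 0.0157 and 0.0108 in edgeR's quasi-likelihood test, the latter 0.0527 without PIN 3. The former was 0.0552 with a replicate block and 0.0888 in a model of WT and PCa alone. *Acat2*, which joins acetyl-CoA units at the entry of the mevalonate pathway, was at 10.9, 8.88 and 11.3 CPM in WT, 20.4, 13.4 and 19.1 in PIN, and 25.5 and 26.9 in PCa. The tumors were highest, and it rose by 1.34 on the log2 scale in PCa versus WT, with an adjusted p of 0.0246 in the same test. It was not called with a replicate block or in a model of WT and PCa alone. Leaving out WT 1, WT 3, PIN 1 or PIN 3 put its adjusted p in edgeR's test between 0.05002 and 0.0755. These were 1 gene called higher and 1 lower of 7 tested in the list of other sterol pathway genes in PCa versus WT, beside 4.35% and 4.18% of all genes. In PCa versus PIN 0 were called higher and 1 lower, beside 2.55% and 3.17%.

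In the list of sterol sensing, export and ester genes, edgeR called 2 of 12 higher in PCa versus WT and 1 in PCa versus PIN, beside 4.35% and 2.55% of all genes. DESeq2 called 4 (*Apoe*, *Abcg1*, *Soat1* and *Scarb1*) and 2 (*Abcg1* and *Scarb1*), beside 17.7% and 14.1% of all genes, and limma-trend the genes edgeR called, beside 9.43% and 7.13%. *Abcg1*, a cholesterol exporter, was at 3.46, 0.634 and 2.64 CPM in WT, 3.10, 3.31 and 1.28 in PIN, and 26.1 and 13.6 in PCa. Both tumors were above all other libraries, and PCa versus WT gave a log2 fold change of 3.15. Its adjusted p was 0.0404 in edgeR's quasi-likelihood test, and 0.0635 to 0.113 when WT 1, WT 3, PIN 1, PIN 2, PIN 3 or PCa 1 was left out. *Scarb1*, the receptor that takes up cholesterol from high-density lipoprotein, was at 27.4, 19.03 and 15.96 CPM in WT, 23.1, 26.6 and 20.4 in PIN, and 47.7 and 96.6 in PCa. Its log2 fold changes were 1.80 in PCa versus WT and 1.63 in PCa versus PIN, with adjusted p-values of 0.0251 and 0.0415 in the same test. The first was 0.0526 to 0.0868 without WT 2, WT 3, PIN 1, PIN 3 or PCa 2, and the second 0.0506 to 0.166 without any 1 of WT 1, WT 3, PIN 1, PIN 2, PIN 3 and PCa 2. Here too both tumors were above all other libraries. Of 13 tested beta-oxidation genes, *Acadl*, a long-chain acyl-CoA dehydrogenase, was the 1 called lower in PCa versus WT by edgeR, where 4.18% of all genes were, with a log2 fold change of -1.24 and an adjusted p of 0.0437, and its levels were 125, 174 and 96.2 CPM in WT, 123, 120.1 and 114 in PIN, and 66.3 and 45.0 in PCa. Without any 1 of the WT or PIN libraries or PCa 2, that p was 0.0590 to 0.125. With a replicate block, or in a model of the 2 groups compared, *Abcg1*, *Scarb1* and *Acadl* were not called. DESeq2 and limma-trend each called *Acadl* and *Ppargc1a* lower in PCa versus WT, beside 17.7% and 9.43% of all genes called in either direction. In PCa versus PIN edgeR called 0 of the 13 (5.72% of all genes), with 6 at an unadjusted p under 0.05 (22.8%), DESeq2 called the same 2 genes lower (14.1%), and limma-trend called 0 (7.13%). The 21 tested genes of fatty acid supply and handling held 0 calls with edgeR in each comparison, with 0, 8 and 7 at an unadjusted p under 0.05 in PIN versus WT, PCa versus WT and PCa versus PIN, where 3.51%, 27.5% and 22.8% of all genes were. DESeq2 called 0, 4 and 3 of them, beside 0.278%, 17.7% and 14.1% of all genes. With limma-trend 0, 1 and 0 were called, beside 0%, 9.43% and 7.13%. In PIN versus WT, edgeR, DESeq2 and limma-trend each called 0 of the 53 tested genes of the 4 related lists, and 3 of them had an unadjusted p under 0.05 with edgeR, beside 3.51% of all genes.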

How the data were processed

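RNA of 3 WT, 3 PIN and 2 PCa tissues was sequenced after depletion of ribosomal RNA. The authors trimmed adapters with cutadapt (version 1.9.1), aligned to mm9 with HISAT2 (version 2.1.0) and deposited HTSeq (version 0.6.1) raw counts per gene without normalization. Whether counting used strand is not given in the sources used here. The deposited table also holds exon lengths (other values than counts), which were used for RPKM.

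The tests were run with edgeR 4.0.16 in R 4.3.3. Genes above 1 CPM in at least 2 libraries were kept, library sizes were scaled by TMM, and 1 model held all 8 libraries in 3 groups, tested with the quasi-likelihood F-test and Benjamini-Hochberg adjustment within each comparison. A call needed an adjusted p under 0.05 together with a log2 fold change beyond 1 in either direction. The paper's methods name this tool, the filter and these limits. They differ in giving normalized values (TPM) to the test, in also using upper-quartile scaling and keeping results on which both scalings concur, and in adding Clipper, which was not run here. CPM and RPKM use TMM library sizes, and ratios between single libraries use CPM plus 0.5, except those to the highest WT library, which use CPM. Standard errors were taken as the size of the fold change over the square root of F. The p-values measure the spread between libraries, which were taken as different animals. Total counts of 21751803 to 29730420 limit the precision of weakly expressed members such as *Idi1*, and 2 PCa libraries limit every comparison with tumors.

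The members, lists and library comparisons were chosen with earlier results of these data known. Values per library are given for the regulators and, in each role, for the members with the highest and lowest fold change in PCa or PIN versus WT. Those of *Fasn*, *Elovl5*, *Hsd17b7*, *Scd1*, *Sqle*, *Fdft1*, *Pmvk*, *Lss* and *Sc4mol*, and the genes compared between single libraries, were added after their values were seen. Promoter letters come from RefSeq (GRCm38.p6). Where 200 genes were set to change 4-fold in simulated PCa libraries, edgeR called 200 in PCa versus WT at a biological coefficient of variation of 0.2 and 92 at 0.4, and the common value of these libraries was 0.489.

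Alternatives were upper-quartile scaling, DESeq2 1.42.0, no filter, filterByExpr, a replicate block, a model of the 2 compared groups alone, limma-trend (limma 3.58.1), no fold change limit and leaving out each library. Leaving out WT 1 and PCa 1 together was added after the data were seen.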

Additional observations from a re-analysis of the deposited data

How the results depend on the processing

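The members called in PIN versus WT stayed at 0 under every alternative run. In PCa versus WT the count was 1 (*Nsdhl*) with upper-quartile normalization (7.9% of all genes) and 2 with DESeq2, ran from 0 to 7 when 1 library was left out, and was 8 without WT 1 and PCa 1, where 16.7% of all genes were called. In PCa versus PIN it was 2 with DESeq2, ran from 0 to 8 when 1 library was left out, and was 8 without WT 1 and PCa 1, beside 18.1% of all genes. Both upper ends come from leaving out PCa 1, which leaves PCa 2 as the lone tumor. The number of called genes over the whole table moved too, from 1198 in PCa versus WT to 2487 with DESeq2, 130 in a model of the 2 groups compared, 413 with a replicate block, 2245 without WT 1 and PCa 1 and 347 to 2477 when 1 library was left out. In PCa versus PIN it moved from 803 to 1984, 388, 151, 2422 and 78 to 2251. In PIN versus WT it was 39 with DESeq2 and 0 otherwise.

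Among the members whose fold change in PCa versus WT is printed, signs turned without PCa 2 for *Elovl6* (-0.089), *Acaca* (-0.17), *Elovl5* (-0.99) and *Srebf2* (-0.56), and without WT 1 and PCa 1 for *Srebf1* (0.18). The signs of the other members were not followed. Over the runs that left out 1 library, the log2 fold change in PCa versus WT ran from -0.089 to 4.42 for *Elovl6*, -0.17 to 1.93 for *Acaca*, -0.99 to 1.66 for *Elovl5*, -0.56 to 1.22 for *Srebf2* and -0.51 to -0.026 for *Srebf1*. Without WT 1 and PCa 1 together, that of *Elovl6* was 4.75, of *Acaca* 2.15, of *Elovl5* 1.56 and of *Srebf2* 1.40.

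Leaving out 1 library took the median log2 fold change of all members from -0.30 to -0.033 in PIN versus WT, -0.38 to 0.34 in PCa versus WT and -0.10 to 0.34 in PCa versus PIN. In PIN versus WT that of the sterol members ran from -0.36 to -0.076 and that of the fatty acid enzymes from -0.11 to 0.29. In PCa versus WT that of the sterol members ran from -0.41 to 0.33 and that of the fatty acid enzymes from -0.28 to 0.95. For the enzymes in PCa versus PIN it ran from -0.32 to 1.14. Without WT 1 and PCa 1, the medians in PCa versus WT were 0.17 for all members and 1.35 for the fatty acid enzymes. The cause was not tested.

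Replicate numbers were not taken to pair these samples, which were treated as different animals. The correlation of deviations between same-numbered libraries averaged 0.0992 over 7 pairs and -0.0505 over 14 other pairs. With the replicate block, 0 members were called in each comparison, and the related genes *Acat2*, *Abcg1*, *Scarb1* and *Acadl*, and *Stard4* in PCa versus WT, were no longer called. In the model of the 2 groups compared the same calls were lost, with adjusted p-values of 0.0724 to 0.170 (edgeR), *Abcg1* was at 0.05005 with upper-quartile normalization, and *Acadl* at 0.0521 without a filter.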

Other observations

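Of the 21 tested genes of fatty acid supply and handling, those given with levels here were picked after their values were seen. The choice carries no test. In PCa versus WT edgeR called 0 of the 21, with 8 at an unadjusted p under 0.05 beside 27.5% of all genes, 3 (*Acsl1*, *Scd3*, *Acsl4*) were called higher and *Acsl3* lower by DESeq2, which called 17.7% of all genes, and *Acsl3* lower by limma-trend, which called 9.43%. *Acsl4*, which activates polyunsaturated fatty acids, was at 1513 CPM in PCa 2 and 266 in PCa 1, against 110 to 334 in WT and 146 to 404 in PIN. *Acsl1*, an activator of long-chain fatty acids, was at 167 CPM in PCa 2 and 841 in PCa 1, against 140 to 171 in WT and 157 to 326 in PIN. *Scd3*, a further stearoyl-CoA desaturase, was at 40.4 CPM in PCa 1 and at 2.63 or less in each other library. *Acly*, which makes cytosolic acetyl-CoA from citrate, was at 265 CPM in PCa 1 and 469 in PCa 2, above all WT (195 to 206) and PIN (176 to 202) libraries. *Slc25a1* went the other way, at 42.9 CPM in PCa 1 and 24.8 in PCa 2. It was below all WT (56.7 to 74.7) and PIN (44.3 to 66.4) libraries. *Acsl3*, an acyl-CoA synthetase known as an androgen-responsive gene, was at 41.7 and 91.0 CPM in the tumors, below all WT (224 to 561) and PIN (137 to 348) libraries.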
